A study of Caenorhabditis elegans with 2 samples.

Results

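The 9 genes described here encode subunits of the *Caenorhabditis elegans* dosage compensation complex: sdc-1, sdc-2, sdc-3, dpy-21, dpy-27, mix-1, dpy-26, dpy-28 and capg-1. They were taken by name, by a rule that uses no signal value, although the set was chosen with earlier results of these data known. All 9 matched a gene among the 19973 protein-coding nuclear genes of the annotation. Binding near them was measured by ChIP-seq, the sequencing of DNA recovered with a chromatin-bound protein, for ATTF-5, a protein named for the AT-hook, a short motif known to contact the minor groove of AT-rich DNA. Whole worms of strain OP724 were used as young adults, 66 hours old and of mixed sex, after synchronisation as starved first-stage larvae. They carry the mutation unc-119(tm4063) and an integrated transgene, wgIs724, that holds attf-5 with a C-terminal TY1::EGFP::3xFLAG tag and a rescuing unc-119(+) copy, and an antibody against GFP recovered the chromatin. The design has 1 group with 2 biological replicates, numbered 1 and 3, so that no conditions could be compared. Neither binding in an untagged strain nor expression of the 9 genes was analysed here, and in whole animals more bound cells and stronger binding per cell cannot be told apart.

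Dosage compensation in this worm lowers transcription from both X chromosomes of XX hermaphrodites to match the single X of XO males. SDC-2, present in XX animals, directs the assembly of the complex on X together with SDC-1, SDC-3 and DPY-30, and DPY-21 is a histone demethylase of the same complex. The other 5 subunits form a condensin, a ring-shaped machine that shapes chromosomes: DPY-27 and MIX-1 are its SMC ATPases, DPY-26 is the kleisin that closes the ring, and DPY-28 and CAPG-1 are its HEAT-repeat subunits. DPY-27 is particular to the dosage compensation condensin, whereas the other 4 also serve in the mitotic condensin in which SMC-4 replaces DPY-27.

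Sequences under the summits at these genes are shown 5′ to 3′ on the strand of the named gene (RefSeq assembly WBcel235, whose coordinates ce11 shares) because they bear on the AT content given further on. Capitals mark TCTC or its reverse complement GAGA. Each spans 101 bases centred on a summit, except that of mix-1, whose summit lies in a 5′ UTR and for which the 164 bases between the divergent 5′ ends of mix-1 and R06F6.12 are shown. The first 4 belong to promoter peaks, the next 2 to weaker regions below the authors' threshold, at sdc-3 and dpy-26, and the last 2 to strong peaks outside the promoter windows of dpy-21 and dpy-28. The weaker regions at dpy-28 and capg-1, which hold 1 copy of TCTC each, are not shown.
sdc-1 (chrX:16275406-16275506, plus strand): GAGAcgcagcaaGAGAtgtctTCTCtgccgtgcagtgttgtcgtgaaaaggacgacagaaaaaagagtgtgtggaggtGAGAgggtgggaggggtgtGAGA
sdc-2 (chrX:11522232-11522332, plus strand): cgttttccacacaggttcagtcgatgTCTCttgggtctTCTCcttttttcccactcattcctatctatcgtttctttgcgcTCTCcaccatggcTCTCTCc
dpy-27 (chrIII:3820316-3820416, minus strand): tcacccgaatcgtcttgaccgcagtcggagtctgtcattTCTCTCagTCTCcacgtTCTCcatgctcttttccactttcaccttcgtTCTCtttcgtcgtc
mix-1 (chrII:10824082-10824245, plus strand): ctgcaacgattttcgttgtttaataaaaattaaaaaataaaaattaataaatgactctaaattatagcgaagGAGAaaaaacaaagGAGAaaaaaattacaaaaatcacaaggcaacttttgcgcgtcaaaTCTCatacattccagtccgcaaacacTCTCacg
sdc-3 (chrV:15048305-15048405, minus strand): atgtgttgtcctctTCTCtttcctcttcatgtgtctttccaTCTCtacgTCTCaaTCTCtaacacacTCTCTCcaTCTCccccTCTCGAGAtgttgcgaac
dpy-26 (chrIV:12451402-12451502, minus strand): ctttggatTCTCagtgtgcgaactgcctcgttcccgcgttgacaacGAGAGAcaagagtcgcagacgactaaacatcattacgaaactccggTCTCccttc
dpy-21, upstream peak (chrV:17951351-17951451, minus strand): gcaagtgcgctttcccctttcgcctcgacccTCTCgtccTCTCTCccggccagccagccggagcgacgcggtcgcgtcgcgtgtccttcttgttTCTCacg
dpy-28, upstream peak (chrIII:10759199-10759299, plus strand): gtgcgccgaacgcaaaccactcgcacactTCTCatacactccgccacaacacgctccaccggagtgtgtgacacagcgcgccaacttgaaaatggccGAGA

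Of the 9 genes, 4 had a promoter peak, namely dpy-27, mix-1, sdc-1 and sdc-2, 4 had only weaker regions, and dpy-21 had no region in its window in any list. The promoter window runs from 1000 bp upstream to 200 bp downstream of the annotated 5′ end, and a peak is a region of the authors' thresholded list with its summit there. Across all protein-coding nuclear genes 2461 of 19973 (12.3%) had such a peak. With 9 genes chosen by hand, the count of 4 is a description beside that background and carries no test.

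The authors deposited 4 lists of regions, each with a signal value in the authors' own scale. No rescaling between lists was done. Pooled and replicate values are given side by side, but their sizes are not compared across the pooled and replicate lists. Means and ratios over the 2 replicates are of the values as deposited, and over promoter peaks the median log2 difference, replicate 1 minus replicate 3, was 0.10. Replicate 1 has 30000 regions, replicate 3 has 28299, the pooled alignments have 30000, and 3331 of the pooled regions passed the threshold on reproducibility. These 3331 were exactly the pooled regions with the highest signal, from 89.6 upwards, so a peak here means a pooled signal of at least 89.6. Read depth is not given in the sources used here.

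The strongest promoter peak of the group was that of dpy-27 (gene WBGene00001086, minus strand, 3813018 to 3819679), the SMC ATPase found in no other condensin. The pooled list, and so the thresholded one, gave a signal of 244, with 99.8 in replicate 1 and 146 in replicate 3 (mean 123 ± 32.6, SD, n = 2). The deposited value was higher in replicate 3, and the log2 ratio of replicate 1 to replicate 3, −0.55, lies between the 2.5 and 97.5 percentiles, −0.88 and 1.21, of the 1824 promoter peaks found in both replicates. Among all genes ranked by their strongest pooled signal, dpy-27 stood at 681, within the top 3.41%.

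The dpy-27 peak lay far from the gene compared with most promoter peaks. Its summit was at −687 bp from the 5′ end (negative distances are upstream), in intergenic sequence on chromosome III (region 3820269 to 3820412), where the summits of replicate 1 and replicate 3 were 4 bp apart. Across 1891 promoter peaks the median offset was −195 bp and 12.1% lay more than 600 bp upstream. The nearest protein-coding 5′ end was that of dpy-27, but the noncoding RNA gene R13G10.5 lies between the peak and dpy-27 on the same strand, and the summit was at −93 bp from its 5′ end. The next coding gene upstream, amx-1, is transcribed the other way, with 2723 bp between the 5′ ends. In the smaller window from 500 bp upstream to 100 bp downstream dpy-27 had no peak, which left 3 of the 9 genes with one.

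The other SMC gene, mix-1 (WBGene00003367, plus strand, 10824246 to 10841424), had its summit just inside the gene. Its pooled signal was 156, with 78.1 in replicate 1 and 76.8 in replicate 3 (mean 77.5 ± 0.907, SD, n = 2), the closest pair of replicate values relative to their mean among the 4 peaks. The summit lay 22 bp downstream of the 5′ end, in the 5′ UTR (chromosome II, region 10824056 to 10824479), and the replicate summits were 3 bp apart. Only 8.51% of promoter peaks had their nearest offset at or downstream of the 5′ end. The peak also lay in the window of R06F6.12, a gene transcribed the opposite way whose 5′ end is separated from that of mix-1 by 164 bp, at −187 bp. It was the only one of the 4 peaks whose summit fell in the window of another coding gene.

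A second and stronger peak lay deep inside mix-1. It had a signal of 247 in the thresholded list, 144 in replicate 1 and 103 in replicate 3, with its summit 16040 bp downstream of the mix-1 5′ end (region 10840074 to 10840497). The nearest noncoding gene there is the snoRNA gene M106.6, which lies inside mix-1, and the summit, in a mix-1 intron, was at −31 bp from its 5′ end. No other member had a thresholded peak inside the gene beyond its promoter window. Pooled regions in the bodies of the other 8 genes numbered from 0 in dpy-28 to 10 in dpy-21, and none had a signal above 56.9.

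**Figure D1:**
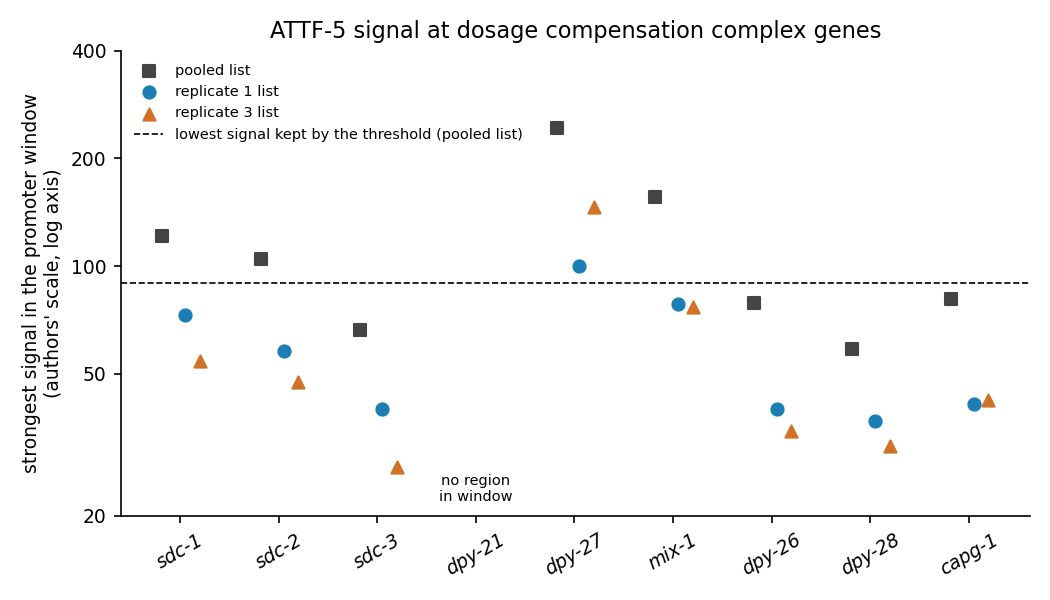
Strongest signal in the promoter window of each gene (log axis) in the pooled list (squares), replicate 1 (circles) and replicate 3 (triangles). The dashed line is the lowest pooled signal kept by the authors' threshold, 89.6, and applies to the squares only. The squares of sdc-1, sdc-2, dpy-27 and mix-1 lie above the line, those of sdc-3, dpy-26, dpy-28 and capg-1 lie between 58.7 and 80.8, and dpy-21 has no region.

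Of the genes that direct the complex to X, sdc-1 and sdc-2 had a promoter peak. At sdc-3 and dpy-30 only regions below the threshold were found. The peak of sdc-1 (WBGene00004745, plus strand, 16275763 to 16282534), which encodes a zinc finger protein, had a pooled signal of 121, with 73.1 in replicate 1 and 54.4 in replicate 3 (mean 63.7 ± 13.2, SD, n = 2). It lay at −307 bp (chromosome X, 16275244 to 16275667), and the replicate summits were 49 bp apart, the widest gap among the 4 peaks. For sdc-2 (WBGene00004746, plus strand, 11522707 to 11533450), whose protein sets the hermaphrodite mode, the pooled signal was 105, with 57.8 in replicate 1 and 47.3 in replicate 3 (mean 52.6 ± 7.49, SD, n = 2). Its summit was at −425 bp (chromosome X, 11522070 to 11522493), and the replicate summits were 6 bp apart. Both peaks are intergenic, and the gap to the next coding gene upstream is 5693 bp for sdc-1 and 3640 bp for sdc-2.

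Both sdc peaks were weak ones among the thresholded regions. That of sdc-1 was stronger than 35.1% of the 3331 peaks and that of sdc-2 stronger than 20.1%, against 80.8% for dpy-27 and 56.9% for mix-1. When only peaks above the median signal of 143 were kept, dpy-27 and mix-1 alone of the 9 genes still had a peak, beside 7.43% of all genes.

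At sdc-3 (chromosome V, WBGene00004747, minus strand, 15039148 to 15048207), which encodes another zinc finger protein, the region had a pooled signal of 66.3, with 39.9 in replicate 1 and 27.5 in replicate 3. Its summits in all 3 lists lay between −148 and −135 bp, so the position was shared although the signal was below the threshold. The nearest thresholded peak was at −23289 bp.

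The condensin genes dpy-26, dpy-28 and capg-1 also had weaker regions only. For the CAP-G subunit gene capg-1 (WBGene00009254, minus strand, 7634492 to 7639785; chromosome I, region 7639845 to 7640268, intergenic) the pooled signal was 80.8, with 41.0 in replicate 1 and 42.3 in replicate 3. It was the member closest under the threshold, with a −log10 q of 3.04 against a lowest value of 3.09 among the thresholded regions. For the kleisin gene dpy-26 (WBGene00001085, minus strand, 12445801 to 12451335; chromosome IV, region 12451240 to 12451663) the pooled signal was 78.7, with 39.9 in replicate 1 and 34.7 in replicate 3. Its summit was at −117 bp in the pooled list, but the replicate summits were 99 bp apart, the widest gap of the 8 genes with a region when the replicate summits nearest to the pooled one are taken.

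At dpy-28 (WBGene00001087, plus strand, 10763131 to 10777076), which encodes the CAP-D2 subunit, the strongest pooled region in the window was the weakest among the 8 genes. The pooled signal was 58.7, at 30 bp downstream of the 5′ end in the first coding exon (chromosome III, 10762949 to 10763372). Replicate 3 gave 31.3 close by, at 17 bp downstream, whereas the strongest replicate 1 region in the window, 37.0, lay at −268 bp, and the one at 30 bp downstream had 29.1. The replicates therefore did not place the strongest region of this window at the same site.

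All 8 genes with a region had one in each replicate. A pooled region was present in the window of 38.6% of all genes, a replicate 1 region in 38.7%, a replicate 3 region in 40.0%, and regions of both replicates in 28.6%. The lists the authors passed to the reproducibility step include background regions by name, and −log10 q fell to 0.0602 in the pooled list. The 4 members below the threshold had pooled values from 1.70 to 3.04. Counting dpy-21 as lowest, the median strongest pooled signal over the 9 genes was 80.8, while 61.4% of all genes had no pooled region and the genes that had one had a median of 53.8. The member ranks ran from 681 for dpy-27 to 3572 for dpy-28 among 7709 genes with a pooled region.

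**Figure D2:**
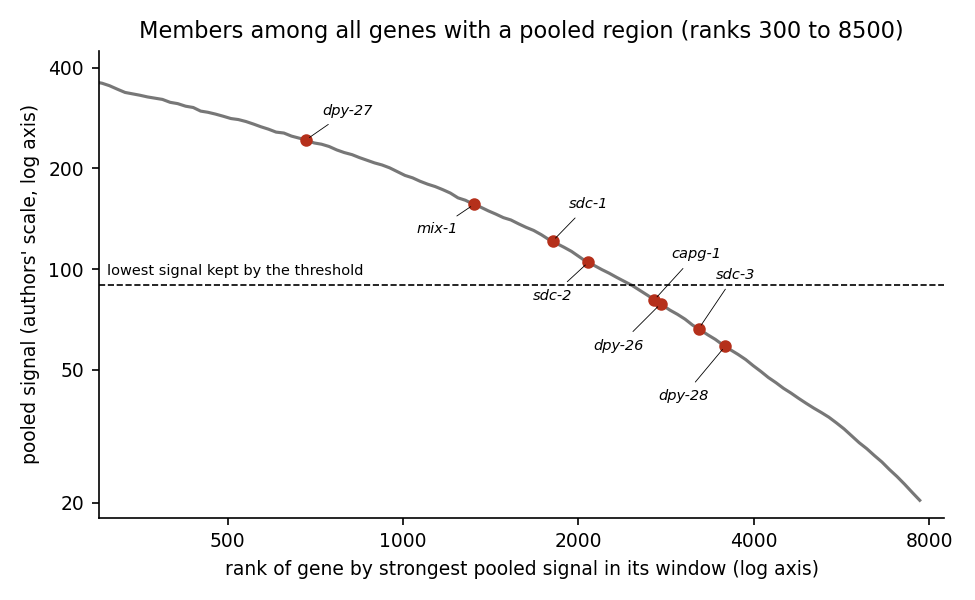
Strongest pooled signal in the promoter window against the rank of the gene by that signal (both axes logarithmic), for the ranks from 300 on of the 7709 genes with a pooled region (grey line) and for the 8 members with one (points). The 4 members above the dashed threshold line lie at ranks 681 to 2080 and the 4 below it at ranks 2699 to 3572.

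The strongest binding near 2 of the genes without a promoter peak lay farther upstream. At −3882 bp from dpy-28 stood the peak with the highest signal of the thresholded and pooled lists, which was 2844, with 1487 in replicate 1 and 1361 in replicate 3 (chromosome III, 10758988 to 10759581). Its summit is at −58 bp from tasp-1, which encodes the protease taspase, and it also lies in the window of K01G5.10. The gene tasp-1 is on the same strand as dpy-28 and ends 109 bp before dpy-28 begins. A same-strand coding neighbour that ends within 500 bp upstream was present at 18.1% of genes, and dpy-28 was the only one of the 9 with such a neighbour. Beyond that limit, the gap to a same-strand neighbour upstream was 562 bp at capg-1 and 727 bp at dpy-26. Whether tasp-1 and dpy-28 are transcribed together was not tested.

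For dpy-21, the histone demethylase gene (WBGene00001080, minus strand, 17936282 to 17949193), the nearest peak lay at −2208 bp. It had a signal of 656 in the thresholded list, 332 in replicate 1 and 326 in replicate 3 (chromosome V, 17951210 to 17951661, intergenic), above that of every promoter peak of the group. The nearest coding 5′ end was that of Y59A8B.24, transcribed away from dpy-21, with the summit at −548 bp from it. A window of 2000 bp upstream to 500 bp downstream still did not take it in. A weaker peak of 91.6, near the threshold, lay beyond the 3′ end of dpy-21, with 54.9 in replicate 1 and 23.5 in replicate 3.

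With any thresholded summit within 5000 bp on either side of the 5′ end, 6 of the 9 genes had a peak, those 4 with a promoter peak together with dpy-21 and dpy-28, beside 30.2% of all genes. This distance was chosen after the values were seen. The remaining 3 genes had no peak over long stretches. The nearest ones to capg-1 were at −17051 bp, in the window of ego-1, and 42790 bp, those to sdc-3 at −23289 and 45910 bp, and those to dpy-26 at −76064 and 33377 bp.

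**Figure D3:**
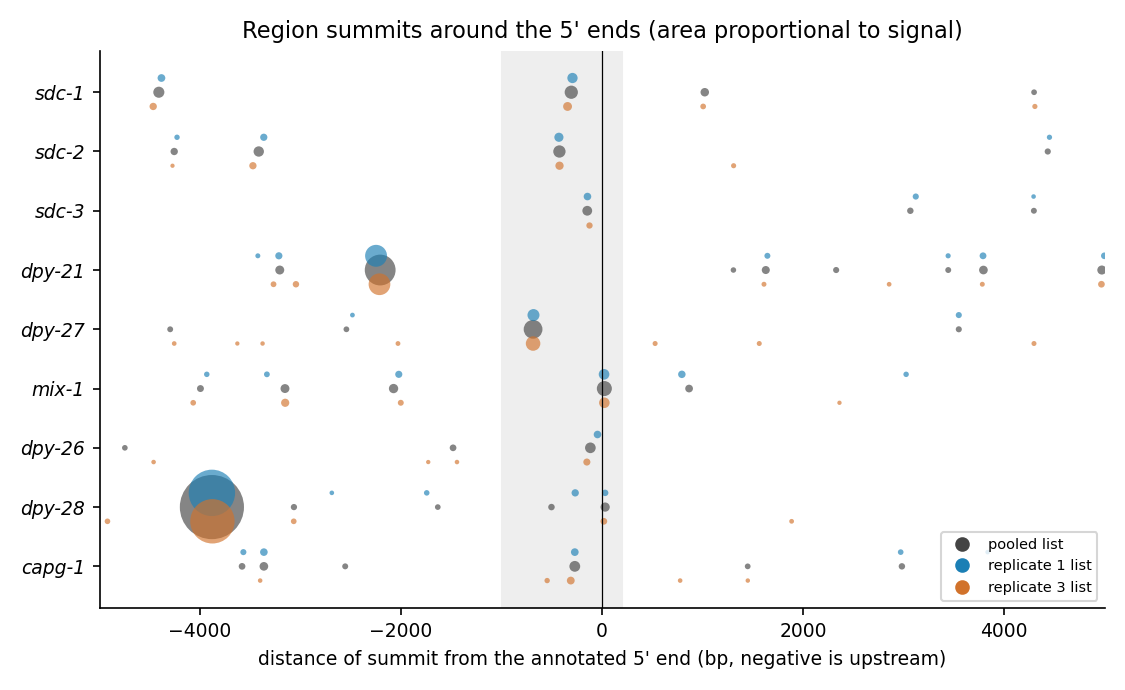
Summits of the pooled list (grey), replicate 1 (blue) and replicate 3 (orange) within 5000 bp of the annotated 5′ end of each gene, with circle area proportional to signal and the promoter window shaded. The largest circles are the peak at −3882 bp from dpy-28 and that at −2208 bp from dpy-21, while inside the windows the largest are those of dpy-27 at −687 bp and mix-1 at 22 bp.

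At the 8 genes with a region the 50 bp on either side of the summit were poorer in A and T than the median of all genes at the same distance from the 5′ end. That median is given for this width only. Within 50 bp on either side of the summit, A and T made up 46.5% of bases at sdc-1, 49.5% at dpy-27, 51.5% at sdc-2 and 57.4% at mix-1. The median was 53.5% over all 1891 promoter peaks (quartiles 48.5 and 59.4%). The values of sdc-2, dpy-27 and mix-1 lay between these quartiles. That of sdc-1 lay below the lower one, with 16.7% of promoter peaks lower still. Over all coding promoters at the median peak offset the median was 66.3% (quartiles 60.4 and 71.3%). Taken at its own offset, the share of coding genes with a lower AT content was 1.98% for sdc-1, 3.69% for dpy-27, 5.58% for sdc-2 and 20.4% for mix-1. These are single genome positions and give no replicate error; the SD between the 2 replicate summits was at most 4.20 percentage points, at sdc-1.

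The 4 weaker regions were alike in this, with 48.5% at dpy-26, 53.5% at sdc-3 and dpy-28, and 55.4% at capg-1. Both strong upstream peaks were still poorer in A and T, with 33.7% at the peak upstream of dpy-21, a value that only 0.317% of promoter peaks fell below, and 41.6% at the peak upstream of dpy-28. At mix-1 the 164 bases between the divergent 5′ ends were 69.5% A and T, above the 57.4% around the summit on their edge. The letters AATT were absent from the 101 bp around the summits of the 4 promoter peaks and present once at dpy-28 and capg-1. They were held by 51.3% of promoter peaks and 76.1% of coding promoters. AAATTT was found in 11.4% and 24.7%, and among the member regions only at capg-1, once. The comparison was not adjusted for the lower AT content of peaks. Both motifs read the same on either strand, and AAATTT contains AATT. The 164 bases shown for mix-1 extend beyond the 101 bp around its summit and do hold AATT.

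**Figure D4:**
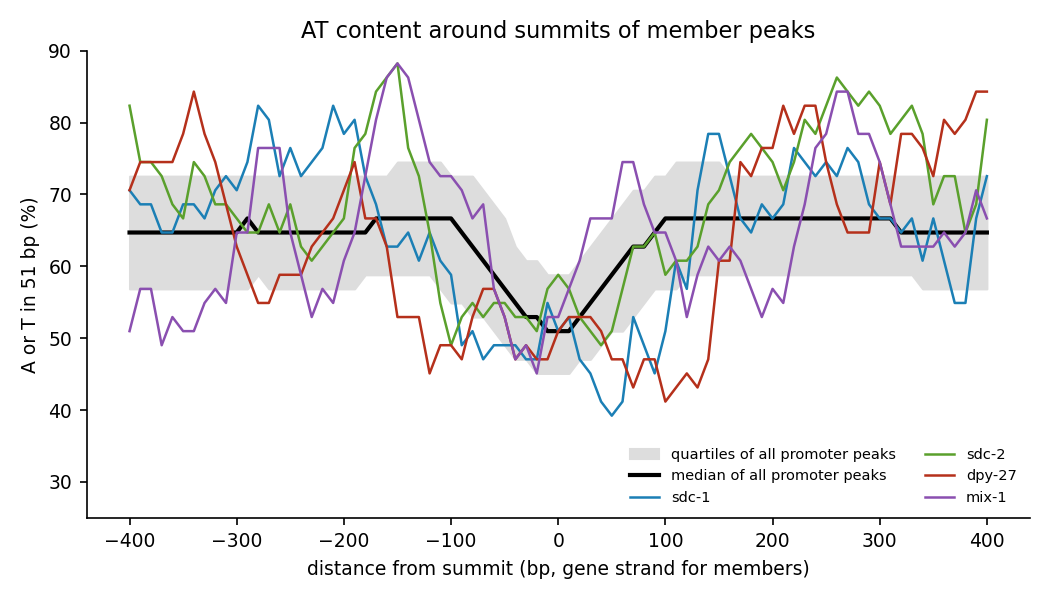
Share of A and T in windows of 51 bp (y axis, percent) against distance from the summit for the peaks of sdc-1, sdc-2, dpy-27 and mix-1, with the median and quartiles of all 1891 promoter peaks. Around the summit all 4 lines fall below 60%, as the median does, and the low stretch reaches past 100 bp on either side for dpy-27.

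Runs of alternating C and T were frequent under some of the summits and rare under others. TCTC, counted on both strands with overlaps, occurred 9 times in the 101 bp around the sdc-3 summit, 5 times each at sdc-1, sdc-2 and dpy-27, 4 times at dpy-26, 2 times at mix-1 and once at dpy-28 and capg-1. At least 1 copy was present in 75.7% of promoter peaks and in 54.4% of coding promoters at the median offset, with a mean of 2.04 and 0.968 copies. The letters were chosen after the member sequences were read, and the comparison was not adjusted for the lower AT content of peaks. On the strand of the gene, C and T made up 75.2% of bases at sdc-2, 74.3% at sdc-3 and 73.3% at dpy-27, but 30.7% at sdc-1, where the runs of C and T lie mostly on the other strand. The share was nearer to even at mix-1 (55.4%), dpy-28 (54.5%), dpy-26 (53.5%) and capg-1 (43.6%). The same share over all promoter peaks is not given here, so whether these values differ from those of other peaks was not tested.

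Of 41 listed genes that work with the complex or near it, 39 matched a symbol in the annotation, and 10 of them (25.6%) had a promoter peak, beside 12.3% of all genes. The lists are short and hand-chosen, and their counts are descriptions with no test. The subunit that the list of 9 lacks, dpy-30, which is shared with a histone methyltransferase complex, had a pooled region of 66.5 and no peak, with 39.5 in replicate 1 and 29.2 in replicate 3.

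Of the 4 other condensin genes 3 (75%, beside 12.3% of all genes) had a peak. The signal was 363 at hcp-6 and 207 at kle-2, which encode subunits of condensin II, and 105 at smc-4, the partner of MIX-1 in the other condensins, while capg-2, also of condensin II, had a pooled region of 30.8 and none in either replicate. The summits at hcp-6, kle-2 and smc-4 are nearer to the 5′ ends of let-630, C29E4.12 and F35G12.7, whose windows hold them too. Given to the nearest coding 5′ end alone, each summit within 2000 bp, none of these 3 genes was bound, whereas dpy-27, mix-1, sdc-1 and sdc-2 all were. Noncoding genes were left out of this rule, and the dpy-27 summit is nearer to the noncoding gene R13G10.5.

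Cohesin genes, which encode the ring complex that holds sister chromatids together, had 1 peak among 10 matched (10%, near the 12.3% of all genes), that of the release factor gene wapl-1 (382, with 204 in replicate 1 and 176 in replicate 3). This peak also lies in the window of htz-1, the histone variant gene on the histone list. A pooled region was present at 7 of the 10, beside 38.6% of all genes. The ring subunit gene smc-3 had regions of 124 in replicate 1 and 91.6 in replicate 3 but no pooled or thresholded one, so the count rests on the pooled list as used here, whose completeness was not tested. The symbols smc-1 and pqn-85 matched no gene; under their current symbols him-1 and scc-2 neither had a peak.

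The genes that read the number of X chromosomes and those of sex determination had peaks at about the share of all genes. The X signal list had 1 of 7 (14.3%, beside 12.3%), ceh-39 (123, with 54.0 in replicate 1 and 69.9 in replicate 3), which encodes a homeodomain protein that acts as an X signal element. The switch gene xol-1, which both controls sex and keeps the complex off X in males, had no region in any list, and nor did sex-1, sea-1 and sea-2. Sex determination genes had 1 of 10 (10%, beside 12.3%), fem-2 (91.1), just above the threshold, with 34.5 in replicate 1 and 60.8 in replicate 3. The gene her-1, which SDC proteins are known to repress, had no region in any list.

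The list of histone mark and anchoring genes had 4 of 7 with a peak (57.1%, beside 12.3% of all genes), of which htz-1 shares the wapl-1 peak and loses it when each summit goes to the nearest 5′ end. They were set-4 (431, with 196 in replicate 1 and 230 in replicate 3), which encodes the methyltransferase that adds further methyl groups to the singly methylated histone H4 known to be enriched on compensated X chromosomes, htz-1 (382), the deacetylase gene sir-2.1 (165) and the methyltransferase gene set-25 (144). The signal of set-4 was above that in the promoter window of each of the 9 members. The gene set-1, whose product places that single methyl group, had a pooled region of 84.0 and no peak.

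**Figure D5:**
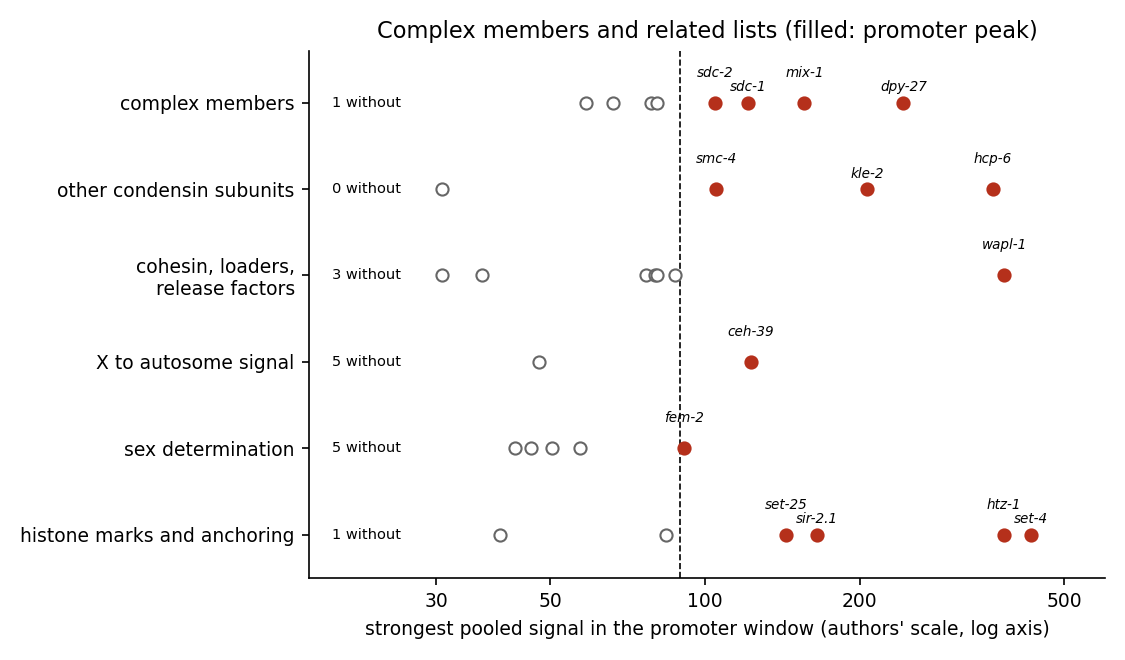
Strongest pooled signal in the promoter window (log axis) for the 9 complex members and for the related lists except dpy-30, with filled points for genes with a promoter peak, open points for genes with a weaker region, and the number of genes without a region at the left. The dashed line is the lowest signal kept by the threshold, 89.6; set-4, htz-1, wapl-1 and hcp-6 lie to the right of dpy-27, the strongest member.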

How the data were processed

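ChIP-seq peak lists of 2 biological replicates in 1 group were used as deposited, in ce11 coordinates. Per the labels and the text deposited with them, the authors made each replicate list from 1 replicate alignment with a control, the pooled list from both alignments, and the thresholded list from these 3 by reproducibility. The caller, the threshold and read depth are not given in the sources used here. The signal of a region is the authors' own deposited enrichment value, and the −log10 q-value is theirs too; neither was rescaled. Summits were set against 5′ ends of protein-coding nuclear genes of Ensembl release 115 with Python 3.11.15 and pandas 2.3.3, and the window code was tested on simulated summits. Sequence came from RefSeq WBcel235. No test was run: with 1 group there is no contrast, and the members and lists were chosen with earlier results of these data known. Named were all 9 members, related genes with a peak, genes sharing a member's peak, dpy-30 and attf-5; other genes were named after their values were seen.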

Additional observations from a re-analysis of the deposited data

How the results depend on the processing

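The count of 4 members with a promoter peak was 3 in the window of 500 bp upstream to 100 bp downstream and 2 with peaks above the median signal. It stayed 4, with the same genes, in the window of 2000 bp upstream to 500 bp downstream, with the nearest 5′ end, any transcript 5′ end, any base of the region in the window or close summits dropped. Taking the strongest pooled regions gave 4 as well, but these are the thresholded regions themselves. Without replicate 1 and without replicate 3 it was 4 as well, with the same genes, beside 12.4% and 11.8% of all genes. The thresholded list was made from both replicates, so these settings cannot repeat the authors' peak calls. All 4 had both replicate summits within 50 bp of the peak. The median pooled signal over members with a region, 92.8, became 80.8 in the smaller window, where dpy-27 drops out. The median AT content of the 4 peaks, 50.5%, became 52.2% with 100 bp on either side of the summit. At this width the AT content was higher at all 8 genes with a region. It rose from 57.4% to 63.2% at mix-1, from 55.4% to 64.7% at capg-1 and from 48.5% to 60.2% at dpy-26. Related genes with a peak numbered 9 in the smaller window and 9 by the nearest 5′ end, where smc-4, hcp-6, kle-2 and htz-1 were lost and mau-2, tra-3 and cec-4 gained. No paired analysis was possible because there is 1 group. With 2 replicates and no depth, a weak region and its absence are hard to tell apart.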

Other observations

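Some genes had clear replicate regions and no pooled one. The cohesin gene smc-3 had a signal of 124 in replicate 1 and 91.6 in replicate 3, at −124 and −188 bp, and no pooled or thresholded region in its window. At the attf-5 locus, to which reads of the integrated attf-5 transgene can also map, replicate 3 had 88.1 at −117 bp and the other lists had none in the window. Of the 3331 strongest replicate 1 regions, 3215 had a replicate 3 summit within 200 bp, and 38 of these had no pooled summit within 500 bp. Whether the pooled and thresholded lists as used here are complete was not tested, so a gene without a peak lacks one in these lists. None of the 9 complex members was among such cases within its window.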
